A study of Homo sapiens with 6 samples.

Results

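The genes described here encode proteins of the mitochondrial ribosome, the mitoribosome. Members are the protein-coding genes whose symbol begins with MRPL (large subunit) or MRPS (small subunit), followed by a number and at most one of the letters A, B or C. Symbols were matched to the Ensembl identifiers of the count files. This gave 76 genes of 57820 in the files, 48 of the large and 28 of the small subunit. All 76 passed the filter on low counts. MRPL45 and MRPS21 were not matched by identifier and are not analysed here.

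Total RNA was sequenced from the line C4-2B-ENZR, human prostate cancer cells resistant to the androgen receptor inhibitor enzalutamide. One group of 3 libraries came from cells given an siRNA against RUVBL1, an AAA+ ATPase of chromatin-remodelling and chaperone complexes. The other 3 libraries came from cells given a negative-control siRNA. All 6 are from the same resistant line, grown in the same medium with fetal bovine serum. No untransfected cells and no enzalutamide-sensitive parent line were analysed here, and the labels name no duration, dose or sequence for the siRNAs. The study's title ties RUVBL1 to enzalutamide resistance.

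Mitoribosomes translate the few mRNAs that the mitochondrial genome encodes, all of them for subunits of the respiratory chain and the ATP synthase. Their RNAs come from mitochondrial DNA, but all their proteins are encoded in the nucleus, made in the cytosol and imported. Many of these proteins have counterparts in bacterial ribosomes, and others are found only in mitochondria, where they form much of the ribosome's surface.

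The deposited values were estimated counts, with totals of 18985542 to 25697804 in the RUVBL1 siRNA libraries and 24720504 to 36054489 in the control libraries. The labels do not say whether replicates were separate cultures, so p-values cover the spread of these libraries alone and that spread may be technical. Both replicate 1 libraries stood apart, as 542 of 14127 genes that reached 20 counts in all libraries of replicates 2 and 3 were at 0 in both of them. None of these 542 genes was a member. The target was lower as labelled. Values are given as normalized counts, which are counts scaled to a common library size with TMM factors, a correction for differences in library composition. RUVBL1 (ENSG00000175792.7) had 2725, 2618 and 2710 normalized counts after RUVBL1 siRNA, against 4681, 4654 and 4758 after control siRNA, which is 57.1% ± 1.23 (SD, n = 3) of the control mean (log2 fold change -0.81, SE 0.0253, edgeR adjusted p = 3.74e-10). All 10 markers of prostate luminal epithelium on a list of cell type markers had at least 10 counts in every library. Their summed normalized counts were 100018.4 to 103220.7 after RUVBL1 siRNA and 119232.3 to 121572.3 after control siRNA. Basal epithelial markers summed to at most 1.3, with KRT5 and KRT14 at 0 throughout. Fibroblast and smooth muscle markers, of which 4 of 7 were at 0, summed to 332.5 to 359.2 after RUVBL1 siRNA and 464.6 to 546.7 after control siRNA. Within that list ACTA2 had a mean of 109 after RUVBL1 siRNA and 274 after control siRNA. COL1A1 had means of 238 and 237 in the same groups. CD68, a marker of macrophages, had 186, 154 and 154 normalized counts after RUVBL1 siRNA and 301, 333 and 327 after control siRNA (log2 fold change -0.96, edgeR adjusted p = 8.71e-06), while the T cell marker CD3E was at 0 throughout. Endothelial markers summed to 40.7 to 44.5 after RUVBL1 siRNA and 32.9 to 39.4 after control siRNA. Neuroendocrine markers summed to 1170.1 to 1197.8 after RUVBL1 siRNA and 1342.2 to 1444.5 after control siRNA, and they did not move together. ENO2 was lower (log2 fold change -0.30, edgeR adjusted p = 3.12e-05). SYP had 112, 114 and 112 after RUVBL1 siRNA and 78, 96 and 92 after control siRNA (log2 fold change 0.35, edgeR adjusted p = 0.0588). The part of these differences in the results below was not tested. In bulk RNA, fewer cells of a kind and less RNA per cell cannot be told apart.

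Most mitoribosome genes moved little, and the one large change was a rise of MRPL41. By edgeR's quasi-likelihood test with Benjamini-Hochberg adjustment over all 16006 genes tested, and a threshold of 0.05, 35 members fell, 9 rose and 32 did not pass. The fall was modest, with a median of 88.9% of the control level over the members that fell. The tilt towards falls depended on the scaling of the libraries: TMM factors gave 35 lower and 9 higher, and library totals alone gave 13 lower and 22 higher. Under both scalings 13 members fell and 9 rose, and 0 were called in opposite directions. Library totals alone moved the members' estimates up, with a median log2 fold change of 0.02 instead of -0.08. That change put the falls at risk and hardly the rises, so keeping the 9 rises is no check on them.

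These counts have to be read against a background in which much of the transcriptome passed the test. Of all genes tested, 42.2% were called, 23.1% lower and 19.1% higher. Genes with many counts are called more often, and 8898 genes had a mean normalized count within the members' range of 307 to 6888. Among those genes 57.8% were called, 34.1% lower and 23.8% higher. The members' 57.9% called was thus near the share of genes with similar counts, while 46.1% of members were lower and 11.8% higher. The large subunit had 21 lower and 7 higher of 48 (43.8% and 14.6%), and the small subunit 14 lower and 2 higher of 28 (7.14% higher). With library totals alone, the large subunit had 9 lower and 15 higher and the small subunit 4 lower and 7 higher, where 14.4% of all genes were lower and 31.1% higher. Of the 8898 genes in that range of counts, 1867 were then lower and 3522 higher.

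The sizes of the changes were small and alike in both subunits. The median log2 fold change was -0.08 for the large and -0.08 for the small subunit, beside 0.01 for all genes and -0.03 for genes in the same range of counts. With library totals alone these medians were 0.02 and 0.02 for the subunits, beside 0.11 for all genes and 0.07 for genes in that range. The SD of the log2 fold change across members was 0.155, beside 0.258 across genes in the same range of counts. Of the 44 members called, 4 were lower by at least 0.32 on the log2 scale (MRPL36, MRPL32, MRPL33 and MRPS28) and 1 was higher by as much (MRPL41). Of all genes tested, 9.25% were called lower by that much and 8.52% higher, and of genes in the same range of counts 11.7% lower and 6.91% higher. The 3 RUVBL1 siRNA values lay below all 3 control values for 36 members and above them for 11. Among all genes 52.6% had no such overlap, 27.4% lower and 25.3% higher, and among genes in the range 66.0%, 37.8% lower and 28.1% higher.

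**Figure D1:**
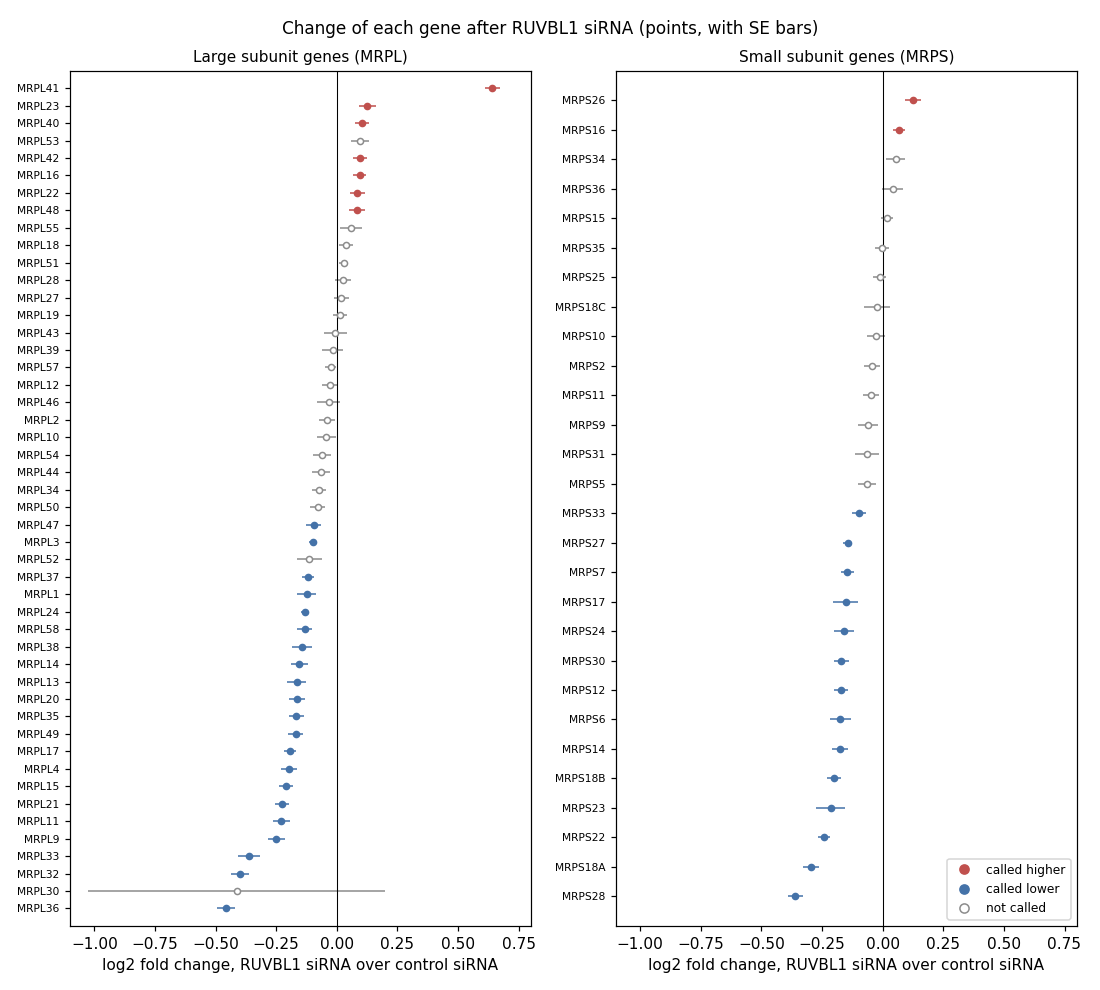
Log2 fold change (horizontal axis, RUVBL1 siRNA over control siRNA, TMM scaling) of each member, with bars of 1 SE, for 48 large subunit genes on the left and 28 small subunit genes on the right. Filled points passed an edgeR adjusted p of 0.05; MRPL41 stands alone at 0.64, the other changes that passed lie between -0.46 and 0.13, and many of the falls are lost when libraries are scaled by their totals alone.

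Promoter sequences are shown for the member with the largest rise and for 4 of the larger falls, 3 with a match and 1 without, to set motifs of known regulators of mitochondrial genes beside the changes. Each run covers 120 bases before the annotated start and 30 from it, from RefSeq in GRCh38.p14, on the gene's strand. Capitals mark exact matches, on either strand, to AAGATGGCG (YY1), GCGCATGC (NRF1) or CACGTG (E-box, bound by MYC), and the matches marked do not overlap each other. MRPL41 lies at chr9:137551759-137551908 (plus strand) and has no match. MRPL36 lies at chr5:1799808-1799957 (minus strand), with an E-box and a YY1 match. MRPL32 lies at chr7:42932256-42932405 (plus strand) with an NRF1 match, and its YY1 match is upstream of the bases shown. MRPS18A lies at chr6:43687762-43687911 (minus strand), with a YY1 match just after the start. MRPL33, which fell more than MRPS18A, lies at chr2:27771599-27771748 (plus strand) and has no match, nor has the promoter of MRPL9, which is not shown.
MRPL41: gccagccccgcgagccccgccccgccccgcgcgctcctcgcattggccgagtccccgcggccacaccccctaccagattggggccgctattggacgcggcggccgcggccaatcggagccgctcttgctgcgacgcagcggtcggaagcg
MRPL36: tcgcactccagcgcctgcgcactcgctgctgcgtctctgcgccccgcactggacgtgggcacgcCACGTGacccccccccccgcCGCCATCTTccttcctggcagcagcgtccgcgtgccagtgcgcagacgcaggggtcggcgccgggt
MRPL32: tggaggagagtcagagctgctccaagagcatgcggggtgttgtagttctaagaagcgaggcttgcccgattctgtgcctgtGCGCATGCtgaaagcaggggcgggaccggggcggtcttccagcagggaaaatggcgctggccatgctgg
MRPL33: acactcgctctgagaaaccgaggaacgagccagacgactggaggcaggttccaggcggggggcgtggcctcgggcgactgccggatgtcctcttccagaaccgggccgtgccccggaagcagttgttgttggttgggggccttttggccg
MRPS18A: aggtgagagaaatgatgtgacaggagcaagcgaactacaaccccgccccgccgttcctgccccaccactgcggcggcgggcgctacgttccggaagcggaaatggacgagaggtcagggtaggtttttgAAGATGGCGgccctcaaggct

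Over whole promoters of 300 bases (250 before the start and 50 after it), 67 of the 76 members were found in the RefSeq table of 27305 promoters. The YY1 motif was present in 13 of the 67 (19.4%), beside 1.85% of all promoters in the table. The ETS motif CCGGAAGT, bound by GABPA, was present in 11 (16.4%, beside 4.44%) and the NRF1 motif in 6 (8.96%, beside 3.27%). The E-box was present in 5 (7.46%, beside 7.43%) and the ATF4 element TGATGNAA in 1 (1.49%, beside 3.67%). The YY1 motif was in 7 of 30 members that fell (23.3%), 2 of 8 that rose and 4 of 29 that were not called (13.8%). A match of letters is a description and no evidence of binding.

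MRPL41 (ENSG00000182154.7) encodes a large subunit protein without a bacterial counterpart, which has also been reported to bind the apoptosis regulator BCL2. It had 6419, 6503 and 6586 normalized counts after RUVBL1 siRNA, against 3954, 4300 and 4247 after control siRNA. The groups were far apart, and the spread within each was small beside the gap. The rise was 1.56-fold (log2 fold change 0.64, SE 0.0297, edgeR adjusted p = 6.03e-08), and it was 0.74 on the log2 scale with library totals alone. Its share of all MRPL counts, which no scaling of libraries can move, was 5.64%, 5.70% and 5.78% after RUVBL1 siRNA and 3.37%, 3.63% and 3.60% after control siRNA. The exact two-sided permutation test for MRPL41 gave p = 0.1, the smallest that 3 against 3 libraries allow.

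Among the other large subunit genes that rose, the changes were 1.09-fold at most. MRPL23 (ENSG00000214026.6), whose protein sits at the exit of the tunnel for the new polypeptide, had 1976, 2013 and 2100 normalized counts after RUVBL1 siRNA and 1846, 1805 and 1929 after control siRNA (log2 fold change 0.13, edgeR adjusted p = 0.013). MRPL40 and MRPL48, proteins of the central protuberance at the top of the large subunit, had log2 fold changes of 0.10 and 0.08. MRPL42 rose by 0.10, MRPL16, the counterpart of bacterial L16 near the catalytic centre, by 0.09, and MRPL22, which lines the exit tunnel, by 0.09. These small rises were less stable than that of MRPL41. Without replicate 3 (both libraries), MRPL41 was the 1 large subunit gene still called higher, and leaving out a single library (RUVBL1 siRNA replicate 1, 2 or 3, or control replicate 1, 2 or 3) left 3 to 4 large subunit genes called higher. MRPL22 and MRPL48 lost their calls when any single library was left out, MRPL42 without RUVBL1 siRNA replicate 1 or 2 or control replicate 1 or 3, MRPL23 without RUVBL1 siRNA replicate 3 or control replicate 2 and MRPL40 without control replicate 2 (edgeR adjusted p at most 0.146). With the replicate number as a block, MRPL48 was not called (adjusted p = 0.0647).

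MRPL36 (ENSG00000171421.8) fell most. Its protein is the counterpart of L36, one of the smallest proteins of bacterial ribosomes. It had 1074, 1120 and 1131 normalized counts after RUVBL1 siRNA, against 1578, 1491 and 1499 after control siRNA, which is 72.8% ± 2.00 (SD, n = 3) of the control mean (log2 fold change -0.46, SE 0.0365, edgeR adjusted p = 7.66e-07). The groups did not overlap.

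MRPL32 (ENSG00000106591.3) encodes a protein that the m-AAA protease cleaves after import, as shown in yeast and mouse. It had 2250, 2488 and 2485 normalized counts after RUVBL1 siRNA, against 3136, 3157 and 3241 after control siRNA (75.8% ± 4.30, SD, n = 3; log2 fold change -0.40, edgeR adjusted p = 4.44e-06). RUVBL1 siRNA replicate 1 was the lowest of the 6 libraries, and all 3 RUVBL1 siRNA values were below the control values. MRPL33 (ENSG00000243147.3), the counterpart of bacterial L33, had 864, 878 and 817 after RUVBL1 siRNA and 1044, 1107 and 1135 after control siRNA (77.9% ± 2.93, SD, n = 3; log2 fold change -0.36, edgeR adjusted p = 3.56e-05). It overlaps another gene on the same strand in GENCODE 29, so its counts may include reads of that gene. These 3 falls passed under both scalings.

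MRPL9, MRPL11 and MRPL21 fell less. Log2 fold changes were -0.25 for MRPL9, -0.23 for MRPL11, whose protein forms the base of the stalk that binds elongation factors, and -0.23 for MRPL21. All 3 also passed with library totals alone, at -0.15, -0.13 and -0.13. MRPL15, MRPL4 and MRPL17 likewise passed under both scalings, with TMM values of -0.21, -0.20 and -0.19.

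In the small subunit, MRPS28 (ENSG00000147586.5) had the largest fall. It had 1581, 1523 and 1548 normalized counts after RUVBL1 siRNA and 1959, 1972 and 2037 after control siRNA, without overlap (log2 fold change -0.36, SE 0.0316, edgeR adjusted p = 1.81e-06). It overlaps 2 genes on the same strand. MRPS18A (ENSG00000096080.7), whose protein is placed in the large subunit despite its name, had 1305, 1350 and 1322 after RUVBL1 siRNA and 1687, 1589 and 1610 after control siRNA (81.4% ± 1.42, SD, n = 3; log2 fold change -0.30, edgeR adjusted p = 1.70e-05). The related MRPS18B fell by 0.20 on the log2 scale, while MRPS18C, the third of these homologues of bacterial S18, had a value of -0.02 (edgeR adjusted p = 0.812).

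MRPS22 (ENSG00000175110.7), a mitochondria-specific protein whose mutations cause mitochondrial disease, had 2870, 2847 and 2929 normalized counts after RUVBL1 siRNA and 3420, 3352 and 3452 after control siRNA (84.6% of the control mean, log2 fold change -0.24, SE 0.0264, edgeR adjusted p = 1.20e-05). The gene overlaps 3 genes on the same strand and 6 on the other, the most of the members named here. MRPS28, MRPS18A, MRPS22 and MRPS18B were the small subunit genes that fell under both scalings. MRPS23 had 1867, 1647 and 1924 after RUVBL1 siRNA and 2054, 2068 and 2186 after control siRNA, with RUVBL1 siRNA replicate 2 the lowest (log2 fold change -0.22, edgeR adjusted p = 0.0191). MRPS23 was not called with library totals alone (adjusted p = 0.136), without RUVBL1 siRNA replicate 1 (0.0527) or without control replicate 3 (0.0553). MRPS14 fell by 0.18, and was not called with library totals alone (adjusted p = 0.102) or without replicate 2 (0.0583).

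Of the 2 small subunit genes that rose, MRPS26 had 1799, 1896 and 1850 normalized counts after RUVBL1 siRNA and 1672, 1676 and 1743 after control siRNA (log2 fold change 0.12, edgeR adjusted p = 0.0095). MRPS16, the counterpart of bacterial S16, had 3961, 4119 and 4050 after RUVBL1 siRNA and 3865, 3840 and 3876 after control siRNA (log2 fold change 0.07, edgeR adjusted p = 0.0359). The groups did not overlap for either gene. Leaving out RUVBL1 siRNA replicate 2 or control replicate 2 left 0 small subunit genes called higher, and leaving out RUVBL1 siRNA replicate 3 or control replicate 1 or 3 left 1.

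**Figure D2:**
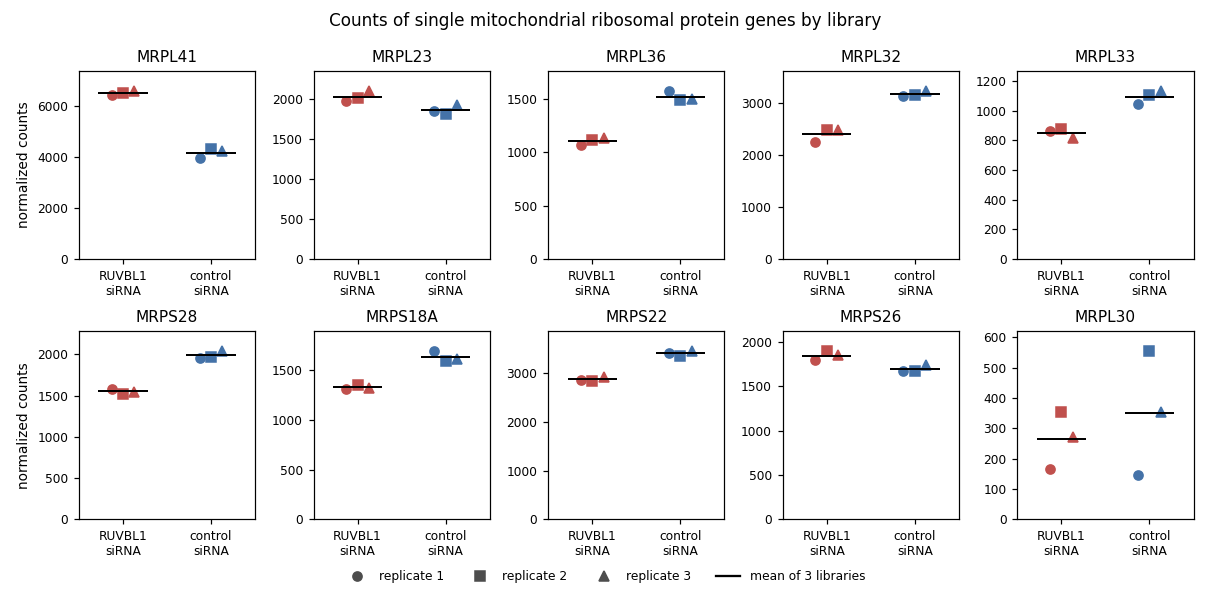
Normalized counts (vertical axes, from 0) of 10 members in each library, with RUVBL1 siRNA on the left and control siRNA on the right of each panel; symbols give the replicate number and lines the mean of 3 libraries. MRPL41 sits at 6419 to 6586 after RUVBL1 siRNA, above 3954 to 4300 after control siRNA, whereas MRPL30 spans 167 to 353 after RUVBL1 siRNA and 145 to 553 after control siRNA, with overlap.

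MRPL30, the counterpart of bacterial L30, varied far more between libraries than the other members. It had 167, 353 and 271 normalized counts after RUVBL1 siRNA and 145, 553 and 354 after control siRNA, with replicate 1 the lowest in both groups. Its coefficient of variation was 35.4% after RUVBL1 siRNA and 58.3% after control siRNA, beside medians over members of 2.38% after RUVBL1 siRNA and 2.79% after control siRNA. The log2 fold change of -0.41 had an SE of 0.611 (edgeR adjusted p = 0.677). With the replicate block it was -0.38 and passed (edgeR adjusted p = 0.0332), and without both replicate 1 libraries it was -0.55 (adjusted p = 0.398). Without control replicate 2 alone it was 0.08 (adjusted p = 0.947). MRPL30 overlaps 2 genes on the same strand. The block also added MRPL52 (-0.12, edgeR adjusted p = 0.0432), MRPL50 (-0.08, 0.0375) and MRPL34 (-0.07, 0.0421) to the calls.

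Members were also counted by the evolutionary origin of their proteins. Beside these counts, 34.1% of genes in the members' range of counts were lower and 23.8% higher with TMM factors. With library totals alone, 1867 of the 8898 genes in that range were lower and 3522 higher. Of 30 large subunit genes with a bacterial counterpart, 17 fell and 3 rose, with a median log2 fold change of -0.13, and with library totals alone 9 fell and 8 rose. Of 18 large subunit genes found only in mitochondria, 4 fell and 4 rose (median -0.03), or 0 and 7 with library totals alone. Whether these types differ was not tested. Of 14 small subunit genes with a bacterial counterpart, 6 fell and 1 rose (median -0.06; 0 and 2 with library totals alone), and of 10 listed as mitochondria-specific 5 fell and 1 rose (median -0.08; 2 and 4 with library totals alone). The list of 10 includes MRPS18B, although it is a homologue of bacterial S18, and MRPS18B is among its falls under both scalings. MRPS28 and MRPS36 were in neither list of the small subunit. These counts by origin thus leave out the fall of MRPS28, at -0.36, or -0.26 with library totals alone. MRPS36, now known as a component of the 2-oxoglutarate dehydrogenase complex, had a log2 fold change of 0.04 (edgeR adjusted p = 0.513). MRPS30, like MRPS18A placed in the large subunit, fell by 0.17 and was not called with library totals alone (adjusted p = 0.101). Counted by structure rather than by name, the large subunit had 23 lower and 7 higher of 50, and the small subunit 12 lower and 2 higher of 26. That count moved only MRPS18A and MRPS30 to the large subunit and kept MRPS36 among the 26.

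Genes were also counted by functional site, and with TMM factors both falls and rises were called at the polypeptide exit and the central protuberance. Over all genes in the members' range of counts, 34.1% were lower and 23.8% higher with those factors. Of 4 stalk genes only MRPL11 passed, while MRPL12, which also binds the mitochondrial RNA polymerase, had a log2 fold change of -0.03 (edgeR adjusted p = 0.570). Of 5 genes at the polypeptide exit, MRPL24 and MRPL47 fell by 0.13 and 0.10 and MRPL23 and MRPL22 rose. With library totals alone neither fall passed (MRPL24 adjusted p = 0.203), and MRPL47 was at 0.003. MRPL47 also lost its call without RUVBL1 siRNA replicate 2 (adjusted p = 0.0569) or 3 (0.0964) or control replicate 2 (0.114). Of 7 genes of the central protuberance, MRPL40 and MRPL48 rose and MRPL38 fell by 0.14. The call of MRPL38 was lost with library totals alone (adjusted p = 0.470) and without RUVBL1 siRNA replicate 2 (0.0798) or 3 (0.0895) or control replicate 1 (0.0586) or 2 (0.0584). Of 5 genes of the decoding site and the head of the small subunit, MRPS7, MRPS12 and MRPS14 fell by 0.15, 0.17 and 0.18, and none of the 3 passed with library totals alone. MRPS9 and MRPS10, also of that site, had values of -0.06 and -0.03 and were not called (edgeR adjusted p = 0.271 and 0.632). MRPL58, which hydrolyses peptidyl-tRNA on stalled ribosomes, fell by 0.13 and was not called with library totals alone (adjusted p = 0.435).

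**Figure D3:**
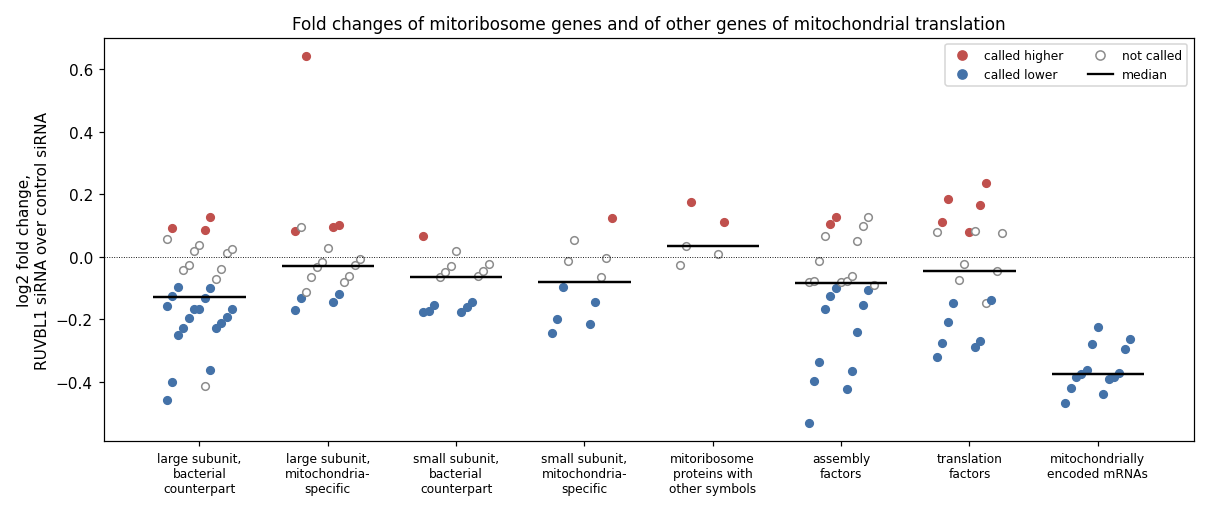
Log2 fold change (vertical axis, RUVBL1 siRNA over control siRNA, TMM scaling) of single genes grouped by the type of mitoribosome protein and of other lists of mitochondrial translation, with bars at the median; MRPS18A, MRPS30, MRPS28 and MRPS36 are in none of the first 4 groups. MRPS18B is drawn with the mitochondria-specific small subunit genes, although it is a homologue of bacterial S18. Large subunit genes with a bacterial counterpart have a median of -0.13 and mitochondria-specific ones -0.03 (-0.03 and 0.07 with library totals alone), and all 13 mitochondrially encoded mRNAs lie below 0 under both scalings.

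Levels differed between members far more than between groups. On a scale of normalized counts per kilobase of median transcript length, the median member had 2272 after RUVBL1 siRNA and 2371 after control siRNA. The length is the median over a gene's annotated transcripts, and which of them these cells express was not tested. A median that is too short for the transcripts present raises a gene's level, so the ranks below hold for this scale only. The large subunit gene with the highest level per kilobase was MRPL51, at 10979 after RUVBL1 siRNA and 10767 after control siRNA. Next came MRPL24 at 9115 after RUVBL1 siRNA and 9980 after control siRNA, and MRPL3 at 8307 and 8891 in the same groups. The lowest levels per kilobase after RUVBL1 siRNA were 176 for MRPL30, 586 for MRPL50 and 640 for MRPL44, which encodes a protein with an RNase III fold. After control siRNA these were 234 for MRPL30, 619 for MRPL50 and 669 for MRPL44. In the small subunit MRPS27, a pentatricopeptide repeat protein, was highest on this scale, at 8545 after RUVBL1 siRNA and 9447 after control siRNA per kilobase. Its rank rests on a median length of 564 bases, and that of MRPL3 on 736 bases, so neither shows which gene has the most transcripts. MRPS33 and MRPS35 followed with 5201 and 4911 after RUVBL1 siRNA, and 5563 and 4920 after control siRNA. MRPS10, MRPS17 and MRPS36 were lowest, with 636, 794 and 837 after RUVBL1 siRNA and 648, 883 and 813 after control siRNA. Among these 12 genes, MRPL24, MRPL3, MRPS27, MRPS33 and MRPS17 fell and the other 7 were not called. None of those 5 falls passed with library totals alone, and the estimates for MRPL3 and MRPS33 turned to 0.001 and 0.003 on the log2 scale. MRPS17 also missed the threshold once RUVBL1 siRNA replicate 1 (adjusted p = 0.0938) or 3 (0.0727) or control replicate 2 (0.0980) or 3 (0.122) was left out.

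Summed over all members, normalized counts after RUVBL1 siRNA were 0.956 times those after control siRNA, with 176977, 177511 and 177538 after RUVBL1 siRNA against 184263, 186052 and 185969 after control siRNA. As a plain share of each library's counts the order turned round. Members took 0.698%, 0.695% and 0.695% of counts after RUVBL1 siRNA and 0.680%, 0.680% and 0.678% after control siRNA. MRPL41 accounted for much of the difference in the large subunit, whose mean share was 0.447% after RUVBL1 siRNA and 0.432% after control siRNA. Without MRPL41 it was 0.422% ± 0.00197 after RUVBL1 siRNA and 0.416% ± 0.00187 after control siRNA (SD, n = 3 each). The small subunit took 0.249% after RUVBL1 siRNA and 0.248% after control siRNA. A plain share of counts also moves with the share that other genes take. The mitochondrially encoded genes took 11.3% to 11.6% after RUVBL1 siRNA and 13.5% to 13.8% after control siRNA.

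**Figure D4:**
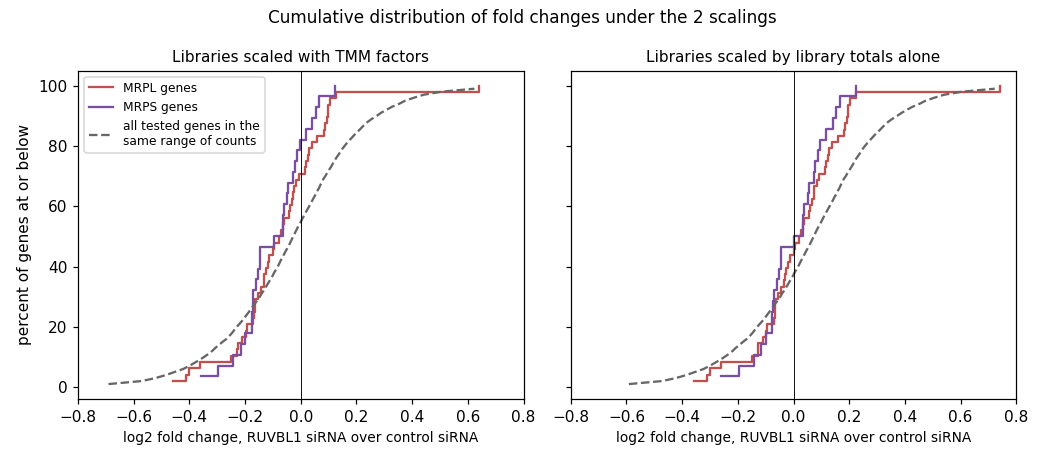
Cumulative percent of genes (vertical axis) at or below a log2 fold change (horizontal axis, RUVBL1 siRNA over control siRNA) for MRPL genes, MRPS genes and all genes in the same range of counts, with TMM factors on the left and library totals alone on the right. The median of the MRPL genes lies at -0.08 on the left and at 0.02 on the right, and the members' curves are steeper than that of the other genes under both scalings.

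Neighbouring genes were examined because 29 members share their start region with a protein-coding gene on the opposite strand whose start lies within 1000 bases in GENCODE 29. Of 27 such pairs with both genes tested, 5 had both genes called, 4 with both lower and 1 with both higher. Among the 27 partners 3 were called higher and 6 lower, where 42.2% of all genes tested were called, 23.1% lower and 19.1% higher. Whether pairs were called together more often than other genes was not tested. The pair that rose was MRPL41 and PNPLA7, a lysophospholipase gene, with log2 fold changes of 0.64 and 0.26. PNPLA7 had 957, 979 and 931 normalized counts after RUVBL1 siRNA and 845, 772 and 787 after control siRNA. MRPL32 and PSMA2, a proteasome subunit gene, fell by 0.40 and 0.18. The other 3 pairs with both genes lower were MRPL14 and TMEM63B, MRPL47 and NDUFB5, and MRPL49 and FAU. In the pairs besides these 5, at most 1 gene passed. NDUFS6, a complex I subunit gene that starts 34 bases from MRPL36, had 3003, 3036 and 2982 after RUVBL1 siRNA and 2851, 3022 and 3003 after control siRNA (log2 fold change 0.02, edgeR adjusted p = 0.599). TCP1, a subunit gene of the cytosolic chaperonin, fell by 0.37 while its partner MRPL18 had a value of 0.04 (edgeR adjusted p = 0.327). Across the 27 pairs Pearson's r of the 2 log2 fold changes was 0.231 and Spearman's rho 0.135, as a description over pairs that share libraries and, in part, overlapping transcripts.

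Genes that work with the mitoribosome were mixed. Counts in this and the next paragraphs stand beside 23.1% lower and 19.1% higher of all genes tested. With library totals alone those shares were 14.4% and 31.1%. Of 5 mitoribosome proteins with other symbols, AURKAIP1 and GADD45GIP1 rose by 0.18 and 0.11 on the log2 scale and 0 fell. The call of GADD45GIP1 was lost without replicate 2 (adjusted p = 0.0532) or 3 (0.0927). DAP3, PTCD3 and CHCHD1 had values of 0.01, -0.03 and 0.04 (edgeR adjusted p = 0.813, 0.603 and 0.420). With library totals alone 4 of the 5 rose, where 3522 of 8898 genes in the members' range of counts were higher.

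Of 24 assembly factors tested, 11 fell and 2 rose (median -0.08), or 6 and 5 with library totals alone. MTERF4, which brings the rRNA methyltransferase NSUN4 to the large subunit, had 1278, 1231 and 1318 normalized counts after RUVBL1 siRNA and 1885, 1815 and 1829 after control siRNA (log2 fold change -0.53, edgeR adjusted p = 1.28e-07). MPV17L2, an inner membrane protein, fell by 0.42, FASTKD2, a protein of mitochondrial RNA granules, by 0.40 and the RNA helicase gene DHX30 by 0.36. The pseudouridine synthase genes TRUB2 and RPUSD3 rose by 0.13 and 0.11. The rise of RPUSD3 was lost when any 1 of the 6 libraries was left out (adjusted p from 0.0618 to 0.171).

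Of 19 mitochondrial translation factors, 7 fell and 5 rose (median -0.04), or 4 and 6 with library totals alone. TUFM, the elongation factor that brings aminoacyl-tRNA to the mitoribosome, had 10553, 10115 and 10325 normalized counts after RUVBL1 siRNA, against 13188, 12730 and 12744 after control siRNA (80.2% of the control mean, log2 fold change -0.32, edgeR adjusted p = 1.66e-07). The elongation factor gene GFM1 fell by 0.27, the recycling factor gene GFM2 by 0.29 and LRPPRC, whose protein stabilizes mitochondrial mRNAs, by 0.21. The initiation factor genes MTIF3 and MTIF2 rose by 0.24 and 0.11, the gene of TUFM's exchange factor TSFM by 0.17 and the ribosome rescue gene MTRFR by 0.19. MTIF2 did not pass once RUVBL1 siRNA replicate 2 (adjusted p = 0.0614) or 3 (0.0555) or control replicate 1 (0.0818) was left out.

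Of 5 genes of mitochondrial transcription, POLRMT, the RNA polymerase, fell by 0.24 and the other 4 were not called. All 13 mitochondrially encoded mRNAs, the templates of the mitoribosome, fell under both scalings, with a median log2 fold change of -0.38, or -0.28 with library totals alone. MT-CO1 fell by 0.38, MT-ND4 by 0.36, MT-CYB by 0.37 and MT-ND5 by 0.42. The mitochondrial rRNA genes MT-RNR1 and MT-RNR2 had 0 or 1 count in each library and were not tested.

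Of 10 nuclear regulators of mitochondrial genes, 2 rose and 5 fell, or 4 and 2 with library totals alone. YY1, the factor of the motif shown above for MRPL36 and MRPS18A, had 2903, 2857 and 2848 normalized counts after RUVBL1 siRNA and 2396, 2489 and 2506 after control siRNA (log2 fold change 0.22, edgeR adjusted p = 5.80e-05). PPARGC1A, the coactivator PGC-1alpha, had 34.7, 34.8 and 28.2 after RUVBL1 siRNA and 15.3, 12.9 and 13.7 after control siRNA, a low level in both groups (log2 fold change 1.22, edgeR adjusted p = 0.00533). Without replicate 2 it was not called (adjusted p = 0.0962). The related coactivator gene PPRC1 fell by 0.40 and HCFC1 by 0.26. ESRRA and MYC fell by 0.15 and 0.14, and neither passed with library totals alone (adjusted p = 0.215 and 0.5). MYC also missed the threshold once RUVBL1 siRNA replicate 2 (adjusted p = 0.0823) or 3 (0.0827) was left out. NRF1 and GABPA had values of 0.08 and 0.11 and were not called (edgeR adjusted p = 0.317 and 0.0560). GABPB1, on the same list, fell by 0.18 (edgeR adjusted p = 0.0293) and was not called with library totals alone (adjusted p = 0.308).

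Counting could affect single members. By GENCODE 29, 23 of the 76 overlap another gene on the same strand and 49 on either strand, and whether counting used the strand is unknown. Pseudogenes named after 33 members were in the files, and their counts were above 1% of the member's own for MRPS31 (10.6%), MRPS17 (3.65%) and MRPS36 (1.06%). Adding pseudogene counts to their parent changed no call among the members. Across members, Spearman's rho of the log2 fold change was 0.142 with transcript length, 0.128 with GC content and 0.122 with mean level, given as descriptions.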

How the data were processed

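Groups and replicate numbers came from the labels. The authors deposited one table of estimated counts per library for 57820 Ensembl genes, not scaled to depth; 87.8% to 90.47% of values, zeros included, were exactly whole. The tool Bowtie 0.12.2 and mouse builds mm8 and mm9 are listed, per the submitters' processing notes, although cells and identifiers are human. For the counter, human build, annotation, strand setting and filters, details were not given in the sources used here. The members and all gene lists were chosen with earlier results of these data known. One cell type marker is not reported here, nor is the sum of its list.

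Counts were rounded, changing library totals by at most 0.000222%. Symbols were matched for 51996 genes. Gene type, length, GC content, overlaps and neighbours came from GENCODE 29, used by identifier and not for coordinates. Promoters came from RefSeq (GRCh38.p14). The test was the robust quasi-likelihood test of edgeR 4.0.16 (R 4.3.3) with TMM factors, filterByExpr and no term but the group. It was two-sided, adjusted by Benjamini-Hochberg over 16006 genes, with a threshold of 0.05. SE is the log2 fold change's size over the square root of F. Normalized counts are counts over the effective library size, times the mean effective size of 26348516. The fit was tested on simulated data without a replicate effect and with no change below 1.25-fold. That check does not cover the 39 of 44 called members whose change was under 1.25-fold.

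Genes named were, per subunit, up to 6 of the largest rises and 6 of the largest falls (called, mean of at least 100.0 normalized counts, no overlap), the 3 highest and 3 lowest levels per kilobase, and up to 4 genes per direction of each pathway list by p; others complete a role or list, and the neighbouring genes and MRPL30's spread were picked after their values were seen. Libraries with the same replicate number had correlated deviations from group means (0.946, 0.837 and 0.840), which meets the rule for pairing by number. The pairing comes from these values, and replicates 2 and 3 also correlated across numbers (0.827 and 0.835). Alternatives were DESeq2 1.42.0, limma 3.58.1 (voom), DESeq2 size factors in edgeR, library totals alone, other count filters, a replicate block, leaving out libraries, leaving out mitochondrially encoded genes, adding pseudogene counts, subunits by structure and a minimum log2 change of 0.32.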

Additional observations from a re-analysis of the deposited data

How the results depend on the processing

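Across 18 alternative fits, which do not include the minimum size of change or the subunits by structure, scaling by library totals alone changed the most calls of members. It gave 4981 genes higher and 2297 lower over all genes, 15 higher and 9 lower for the large subunit, 7 higher and 4 lower for the small subunit, and medians of 0.0236 and 0.0181. It turned the sign of MRPL3 (0.00128), MRPL47 (0.00341) and MRPS33 (0.00252), which were at -0.098, -0.096 and -0.097 with TMM factors. Other members moved up by a near-equal amount, MRPL41 from 0.64 to 0.74 and MRPL36 from -0.46 to -0.36. The TMM factors left out were 1.03 to 1.04 for RUVBL1 siRNA and 0.962 to 0.973 for control siRNA. Why the factors differ between groups was not tested. A minimum log2 change of 0.32 left 1 higher and 3 lower in the large subunit and 0 higher and 1 lower in the small subunit. With no filter on low counts, 1 small subunit gene was higher and that subunit's median was -0.100. Leaving out a library, or both libraries of a replicate number, gave 1 to 5 higher and 17 to 21 lower large subunit genes, 0 to 2 higher and 11 to 14 lower small subunit genes, a small subunit median of -0.114 to -0.0772, and 1891 to 3435 genes higher over all genes, with fewer samples in each fit. Of the called members, 14 (MRPL41 and 13 that fell) kept their call and direction in all 18 of these fits, while 7 of 9 that rose and 8 of 35 that fell lost it in at least 3. With the replicate block, MRPL had 6 higher and 25 lower and MRPS 2 higher and 14 lower; it changed no other call than those given above for the members.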
